A study of Danio rerio with 4 samples.

Results

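Embryonic globin genes and a small set of other red cell genes were examined in venous and lymphatic endothelial cells of tie1 mutant zebrafish. The set was named gene by gene: the embryonic alpha globins hbae3 and hbae5, the embryonic beta globins hbbe1.1, hbbe1.2, hbbe1.3, hbbe2 and hbbe3, and the erythroid genes alas2, cahz and slc4a1a. Of these 10 genes, 8 were found by symbol among the 29027 rows of each table. The genes hbae5 and hbbe1.3 were not analysed here. All 8 passed the filter on low values and were tested together with the other genes, 28301 in all.

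Hemoglobin carries oxygen in red cells as a tetramer of alpha and beta globin chains, each holding a heme group. In fish the red cells keep their nucleus, and the first, primitive wave of them forms in the embryo from mesoderm of the posterior trunk before it enters the circulation. These cells use embryonic globin genes that are replaced later by adult ones. Globin messenger RNA is the dominant transcript of red cells, which makes it a sensitive marker of their RNA in a preparation of another cell type. Endothelial cells do not use globin as an oxygen carrier, although blood and endothelium share early progenitors in the zebrafish embryo.

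The cells came from trunks and tails dissected at 47 hours post fertilization from embryos with the reporters Tg(kdrl:EGFP) and Tg(lyve1:DsRed). The first reporter marks endothelial cells and the second marks venous and lymphatic ones, and cells positive for both were sorted. The mutant group, tie1 Homo, consisted of homozygous tie1-/- embryos picked for the presence of blood flow. The comparison group, tie1 WT/Het, consisted of tie1+/? embryos of the same families, in which wild-type and heterozygous animals were not told apart. Each group had 2 libraries, and the labels do not say whether they came from separate pools of embryos. The p-values therefore cannot be taken to measure the spread between embryos or pools. Tie1 is an endothelial receptor tyrosine kinase of the angiopoietin receptor family.

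Expression was given as TPM (transcripts per 1000000), which is scaled for transcript length, so levels of different genes can be set side by side. Read depth is unknown. The targeted gene tie1 had 61.0 and 31.0 TPM in the WT/Het libraries and 16.7 and 10.2 TPM in the Homo libraries. The sort markers kdrl and lyve1b were present in all 4 libraries. They had 952 and 1009 TPM and 1410 and 1044 TPM in WT/Het replicates 1 and 2, against 322 and 47.2 TPM and 608 and 175 TPM in Homo replicates 1 and 2. The libraries differed in their floor: 310 genes of odorant, taste and trace amine receptors and of lens gamma crystallins had a 95th percentile, called the background limit here, of 3.98 and 6.48 TPM in WT/Het and of 14.1 and 19.0 TPM in Homo. The tie1 value of Homo replicate 2 was under the limit of its library, and that of Homo replicate 1 was little above it. Over all tested genes the median log2 fold change of Homo over WT/Het was 1.17, on the log2(TPM + 1) scale used for all fold changes. The median depended on level: it was 1.38 for genes at or under the limit in all libraries. For genes with a mean of at least 50 TPM it was -1.67. Because the limit is higher in the Homo libraries, the choice of genes at or under it favours a positive change. Every change given below has to be read beside the all-gene median and beside the median for its level. Median-of-ratios rescaling aligns the libraries on their median gene, so the all-gene median of 0.03 that it left follows from the method.

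The embryonic beta globins hbbe1.1 and hbbe1.2 were among the most abundant transcripts of the sorted cells. In the WT/Het libraries hbbe1.1 held rank 17 and rank 15 among all rows, and hbbe1.2 held ranks 65 and 77. In the Homo libraries hbbe1.1 held ranks 32 and 75, and hbbe1.2 held ranks 141 and 221. The other beta globins were less abundant, with ranks from 494 to 1084 for hbbe3 and from 1964 to 8048 for hbbe2 over the 4 libraries. All 5 globins had lower values in both Homo libraries than in both WT/Het libraries, and 3 of them (hbae3, hbbe1.1 and hbbe1.2) fell by the test across all genes. Of all genes with a mean of at least 50 TPM, 76.0% likewise had both Homo libraries below both WT/Het libraries and 33.0% were called lower. The 3 other erythroid genes did not share this pattern. The gene cahz overlapped between groups, and alas2 and slc4a1a had low values that were higher in the Homo libraries. Over all tested genes, 65.8% had both Homo libraries above both WT/Het libraries and 12.0% had both below. The globin hbbe2 had a mean under 50 TPM, so the shares for genes above that level do not cover it.

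The beta globin hbbe1.1 had 3126 and 2443 TPM in WT/Het replicates 1 and 2 and 1207 and 369 TPM in Homo replicates 1 and 2. The groups did not overlap, and the Homo replicates lay further apart than the WT/Het replicates. Its mean was 2784 ± 483 TPM in WT/Het and 788 ± 592 TPM in Homo (SD, n = 2 each), a 3.53-fold lower mean, with a log2 fold change of -2.05 ± 0.86 (SE) and an adjusted p of 0.0405 by limma. Its paralog hbbe1.2, which encodes a closely related beta chain, had 1413 and 1101 TPM in WT/Het and 428 and 117 TPM in Homo. It was thus highest in WT/Het replicate 1 and lowest in Homo replicate 2, as hbbe1.1 was. The mean of hbbe1.2 went from 1257 ± 221 to 273 ± 220 TPM (SD, n = 2 each), with a log2 fold change of -2.47 ± 0.93 (SE) and an adjusted p of 0.027 by limma.

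The genes hbbe1.1 and hbbe1.2 are near-identical copies, and RefSeq lists the same older name, bE1, for both. Reads shared by the copies may have been split between the rows by the authors' quantification, so their separate values are uncertain. Their sum does not depend on that split within the pair. It was 4539 and 3544 TPM in WT/Het and 1634 and 487 TPM in Homo, a 3.81-fold lower mean. The groups did not overlap for the sum either, and the Homo libraries differed from each other by 3.36 times. No row was found for hbbe1.3, so where reads of that gene were counted is unknown.

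The alpha globin hbae3 had 363 and 415 TPM in WT/Het and 97.2 and 56.8 TPM in Homo. Both Homo values were below both WT/Het values, and the spread within each group was smaller than the gap between them. The mean fell from 389 ± 36.6 to 77.0 ± 28.6 TPM (SD, n = 2 each), which is 5.06-fold lower, with a log2 fold change of -2.37 ± 0.95 (SE) and an adjusted p of 0.0341 by limma. No other globin of the 5 had a larger ratio of group means.

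The beta globins hbbe3 and hbbe2, which belong to another globin cluster, were lower in Homo but did not pass the test. For hbbe3 the values were 211 and 244 TPM in WT/Het and 97.4 and 35.3 TPM in Homo. For hbbe2 they were 32.6 and 58.7 TPM in WT/Het and 10.1 and 19.2 TPM in Homo. Neither gene overlapped between groups. The log2 fold changes were -1.93 ± 0.94 (SE, adjusted p = 0.0708 by limma) for hbbe3 and -1.58 ± 0.78 (SE, adjusted p = 0.075 by limma) for hbbe2. The Homo values of hbbe2 were near the floor of those libraries: 10.1 TPM was under the limit of Homo replicate 1, and 19.2 TPM was 1.01 times that of Homo replicate 2.

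**Figure D1:**
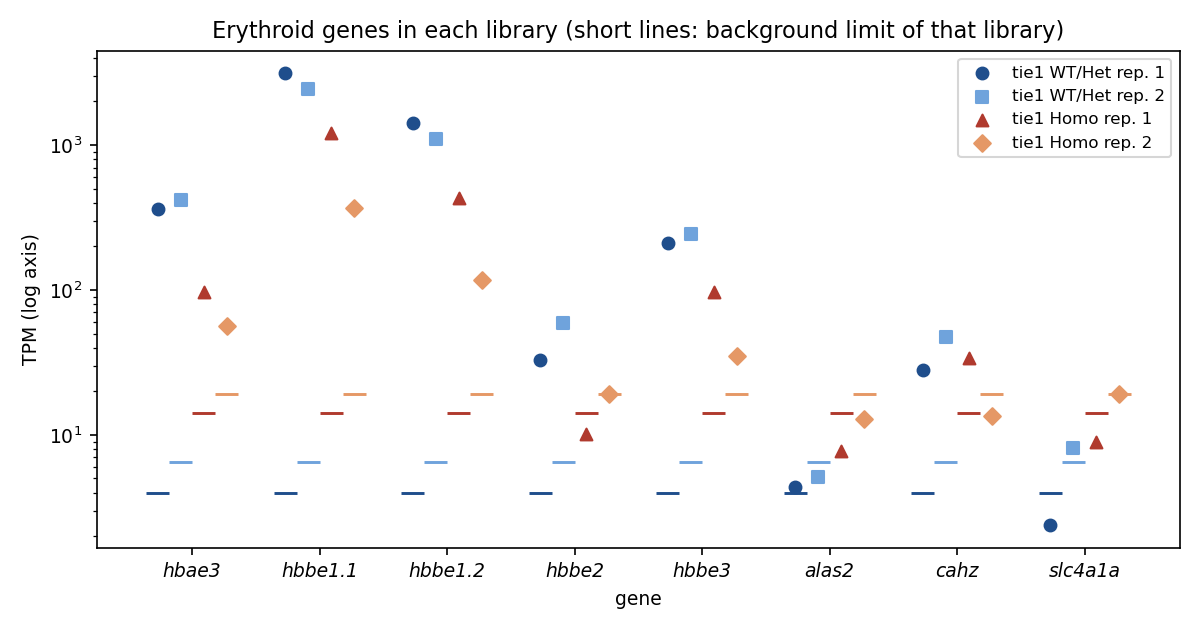
TPM (log axis) of the 8 globin and erythroid genes in each of the 4 libraries; each point is 1 library and the short line under or over it is the background limit of that library. All 5 globins are lower in both Homo libraries as deposited, whereas alas2 and slc4a1a lie near the limits, which rise from 3.98 TPM in WT/Het replicate 1 to 19.0 TPM in Homo replicate 2.

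In the WT/Het libraries the order of the mean levels was hbbe1.1, hbbe1.2, hbae3, hbbe3, hbbe2 at 45.7 ± 18.5 TPM, cahz at 37.8 ± 13.6 TPM, slc4a1a at 5.25 ± 4.06 TPM and alas2 at 4.71 ± 0.52 TPM (SD, n = 2 each). The 4 most abundant globins of the set, hbbe1.1, hbbe1.2, hbae3 and hbbe3, were separated from one another by more than their spread. The neighbours hbbe2 and cahz were not, and neither were slc4a1a and alas2. In the Homo libraries the values of hbbe1.1 and hbbe1.2 overlapped across replicates, as did those of hbae3 and hbbe3, and the order hbbe1.1 above hbbe1.2 held inside each library.

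The enzyme gene cahz encodes a carbonic anhydrase of zebrafish blood cells, which speeds the exchange of carbon dioxide and bicarbonate. It had 28.1 and 47.4 TPM in WT/Het and 33.7 and 13.5 TPM in Homo, so that the groups overlapped and only Homo replicate 2 was low. That last value was under the limit of its library. Its log2 fold change, -0.74 ± 0.80 (SE), did not pass (adjusted p = 0.418 by limma).

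The gene alas2 encodes the erythroid form of 5-aminolevulinate synthase, the first enzyme of heme synthesis, and slc4a1a encodes the band 3 anion exchanger of the red cell membrane. For alas2 the values were 4.34 and 5.08 TPM in WT/Het and 7.71 and 12.9 TPM in Homo. For slc4a1a they were 2.38 and 8.13 TPM in WT/Het and 8.9 and 19.2 TPM in Homo. Both genes lay near the background limit: alas2 was above it in WT/Het replicate 1 alone, and slc4a1a in WT/Het replicate 2 and, by 1.01 times, in Homo replicate 2. Only slc4a1a passed the test, with a log2 fold change of 1.35 ± 0.59 (SE) and an adjusted p of 0.0457 by limma, a change that lay 0.18 above the median of all genes. Its log2 fold change was 0.63 without WT/Het replicate 1, 2.07 without WT/Het replicate 2, 1.87 without Homo replicate 1, 0.83 without Homo replicate 2 and 0.16 with median-of-ratios rescaling, and of these only the fit without WT/Het replicate 2 kept the call. The change of alas2, 0.95 ± 0.56 (SE) on the same scale, did not pass (adjusted p = 0.136 by limma). It was 0.22 below that median, and its sign turned under median-of-ratios rescaling, quantile normalization and background subtraction.

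In all, 3 of the 8 genes were called lower and 1 was called higher. Over all tested genes limma called 4.43% lower and 44.6% higher. Measured from the all-gene median, the log2 fold changes of the 5 globins lay between -3.64 for hbbe1.2 and -2.75 for hbbe2. Both Homo libraries lay below both WT/Het libraries for 5 of the 8 genes, against 12.0% of all genes, and above them for 2 of the 8, against 65.8% of all genes. The direction over all genes depended on level, however. Of the 1788 genes with a mean of at least 50 TPM, 93.1% had a negative log2 fold change, 76.0% had both Homo libraries below both WT/Het libraries, and 33.0% were called lower. The globins hbae3, hbbe1.1, hbbe1.2 and hbbe3 belong to these genes, and all 4 had non-overlapping groups while 3 were called. Their log2 fold changes, from -2.47 to -1.93, compare with a median of -1.67 for abundant genes. At the other end, 99.4% of the 15935 tested genes at or under the limit in all libraries had a positive log2 fold change, with a median of 1.38, and 70.1% were called higher. The genes alas2 and slc4a1a lie near this range, above the limit in 1 and in 2 libraries. As the limit is higher in the Homo libraries, choosing genes at or under it favours a positive change, so these shares partly follow from the choice.

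**Figure D2:**
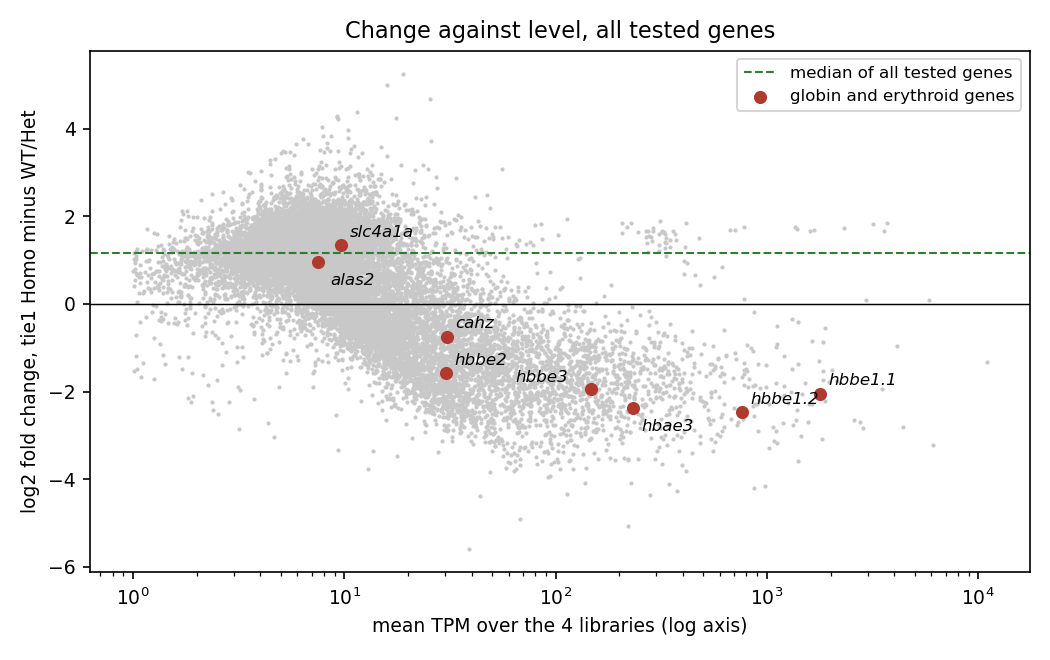
Log2 fold change (Homo minus WT/Het, on log2(TPM + 1)) against the mean TPM over the 4 libraries (log axis) for the 28301 tested genes in grey, with the 8 globin and erythroid genes in red and the median of all genes, 1.17, as a dashed line. The globins lie inside the cloud of abundant genes, whose median was -1.67, and alas2 and slc4a1a inside that of low genes, where alas2 turns sign under median-of-ratios rescaling, quantile normalization and background subtraction.

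For each of the 8 genes taken alone, the two-sided exact permutation p-value over libraries was 0.333, except for cahz with 0.667. The value 0.333 is the smallest that 2 libraries against 2 can give. The limma p-values are smaller because the variance of each gene was replaced almost wholly by the trend for its level, so they do not measure the spread of its own replicates. Median-of-ratios rescaling, quantile normalization, background subtraction and the fit without a filter each left 0 of the 8 genes called lower by limma. At an unadjusted p-value under 0.05 they had 5, 2, 4 and 3 genes lower. Leaving out WT/Het replicate 1 or WT/Het replicate 2 also left 0 genes called lower, with 0 at an unadjusted p-value under 0.05. Leaving out Homo replicate 1, in turn, added hbbe3 to the 3 lower genes, for 4 in all. Without Homo replicate 2 the log2 fold change of hbbe1.1 was -1.19 and that of hbbe1.2 was -1.54, while without Homo replicate 1 they were -2.90 and -3.40. Of the 16 alternatives, 6 ended the call of hbbe1.2, 7 that of hbae3, 10 that of hbbe1.1 and 9 that of slc4a1a. The sign of the 5 globins was negative under all 16.

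**Figure D3:**
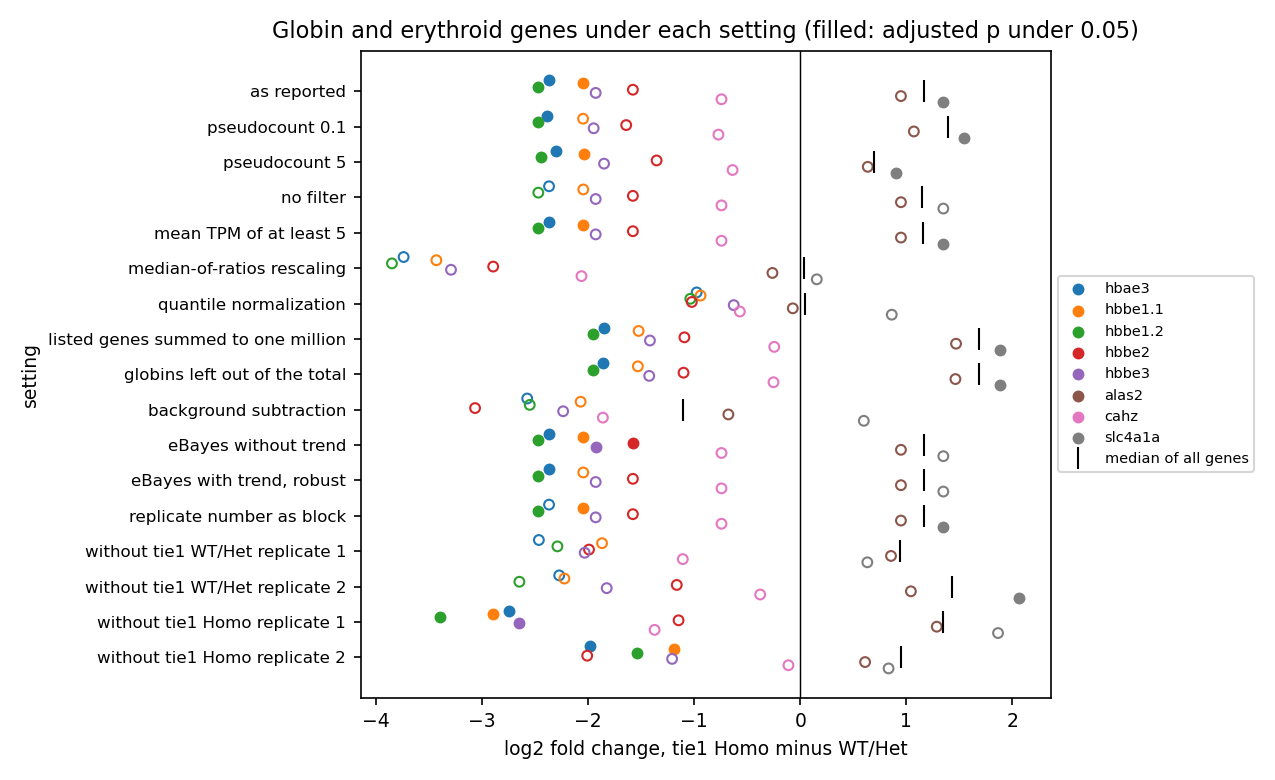
Log2 fold change (Homo minus WT/Het) of the 8 genes as reported and under 16 alternatives; filled points passed a limma adjusted p-value under 0.05 and the black bars give the median of all genes tested in that setting. All 5 globins stay below 0 throughout, alas2 changes sign under median-of-ratios rescaling, quantile normalization and background subtraction, and no point is filled under those 3 settings.

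Ratios between genes inside a library do not depend on how that library was scaled. The 5 globins together held 5146 and 4262 TPM in WT/Het and 1839 and 598 TPM in Homo, a mean of 4704 ± 625 against 1219 ± 878 TPM (SD, n = 2 each). That was 0.633% and 0.579% of the listed TPM in WT/Het and 0.305% and 0.124% in Homo. The share of these 5 globins in the listed TPM was therefore lower in both Homo libraries, and lowest in Homo replicate 2. With hbae1, a further alpha globin row, added it was 0.898% and 0.888% in WT/Het and 0.524% and 0.188% in Homo. The listed TPM summed to 813042 and 736606 in WT/Het and to 602394 and 481065 in Homo, short of 1000000. Here, as in any bulk sample, fewer cells of a type and less RNA per cell cannot be told apart. The floor also differed, with background limits of 3.98 and 6.48 TPM in WT/Het and of 14.1 and 19.0 TPM in Homo. The part that the floor had in the lower share was not tested.

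Apart from the share of hbbe2, the makeup of the pool of these 5 globins varied less than its size. Of the summed TPM of the 5 globins, hbbe1.1 made up 60.7% and 57.3% in WT/Het and 65.6% and 61.8% in Homo. The share of hbbe1.2 was 27.5% and 25.8% in WT/Het and 23.3% and 19.6% in Homo. Relative to hbbe1.1, hbbe1.2 stood at 0.452 and 0.451 in WT/Het and at 0.355 and 0.317 in Homo. The groups did not overlap for this ratio, which rests on 2 rows that may share reads. They overlapped for the ratios of hbae3, hbbe2 and hbbe3 to hbbe1.1. How often the ratio of any gene to hbbe1.1 separates the groups was not computed. The share of hbae3 ranged from 5.28% in Homo replicate 1 to 9.74% in WT/Het replicate 2. For hbbe3 the share lay between 4.1% and 5.9%, and for hbbe2 it was 0.634% and 1.38% in WT/Het and 0.55% and 3.21% in Homo. The Homo values of hbbe2 were near the floor, at 0.718 and 1.01 times the limits of their libraries. With hbae1 included, the alpha rows summed to 0.527 and 0.70 times the 4 beta rows in WT/Het and to 0.811 and 0.67 times in Homo. With a further alpha row added, si:ch211-5k11.2, these ratios were 0.889 and 1.18 in WT/Het and 1.37 and 1.13 in Homo, and the groups overlapped both times.

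Set against the markers of the sort, the ratio of the globins to lyve1b varied less between libraries than that to kdrl. The summed globins were 3.65 and 4.08 times lyve1b in WT/Het and 3.03 and 3.41 times lyve1b in Homo. They were 5.41 and 4.22 times kdrl in WT/Het, 5.70 times kdrl in Homo replicate 1 and 12.7 times kdrl in Homo replicate 2. Against cdh5, the gene of the endothelial junction protein VE-cadherin, they were 74.6 and 73.9 times in WT/Het and 50.7 and 19.3 times in Homo. Both Homo ratios lay below both WT/Het ratios for lyve1b and cdh5, and above them for kdrl. The library with the least globin RNA, Homo replicate 2, had the most globin per kdrl and the least per cdh5. The direction of such a ratio thus depended on the endothelial gene chosen. The values of cdh5 were 69.0 and 57.7 TPM in WT/Het and 36.25 and 30.95 TPM in Homo, where the limits were 14.1 and 19.0 TPM. How often the ratio of any gene to lyve1b or cdh5 separates the groups was not computed. Of the 5 globins, hbbe1.1 and hbbe3 had a ratio to kdrl that was higher in both Homo libraries, as had 65.9% of genes with a mean of at least 50 TPM and 91.4% of all genes with a mean of at least 1 TPM and values above 0 in every library.

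**Figure D4:**
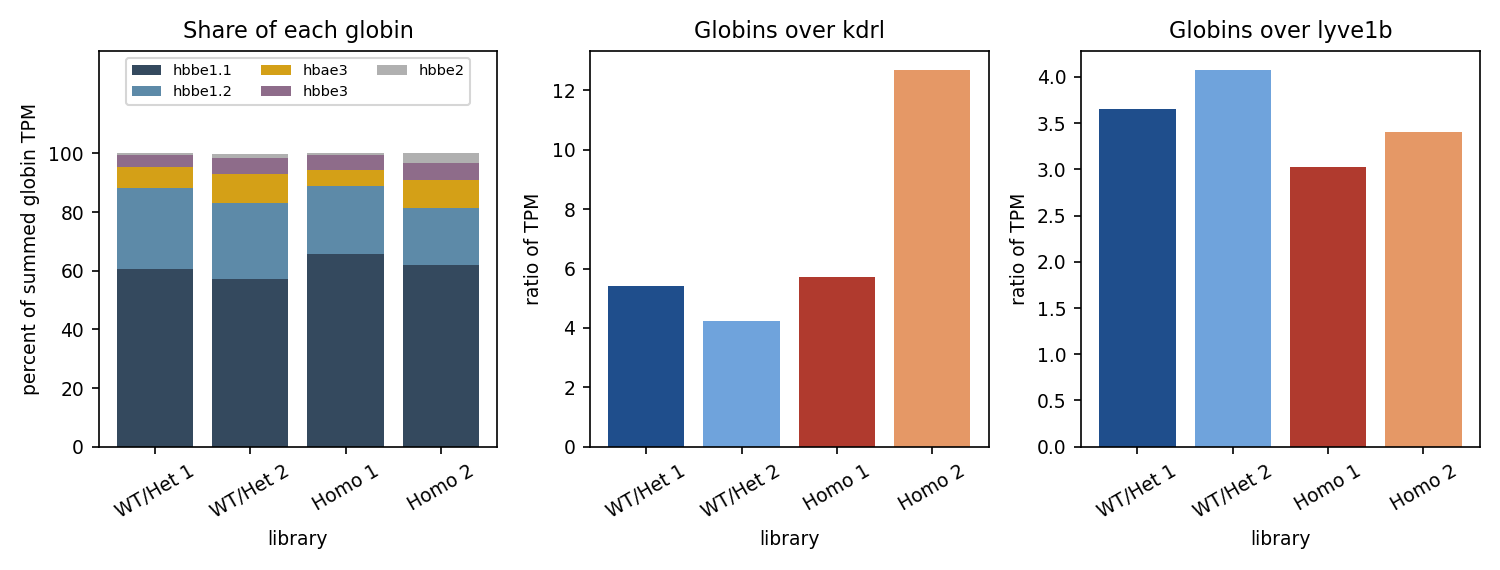
Left, share of each of the 5 globins in their summed TPM, in percent, for the 4 libraries; middle and right, ratio of the summed globin TPM to kdrl and to lyve1b TPM, where each bar is 1 library and there is no error bar. The largest share is that of hbbe1.1 and the next that of hbbe1.2 in all 4 libraries, while hbbe2 holds between 0.55% and 3.21%. The ratio to kdrl is 12.7 in Homo replicate 2 against 4.22 to 5.70 elsewhere, and the ratio to lyve1b lies between 3.03 and 4.08. Both Homo libraries lie above both WT/Het libraries for kdrl and below them for lyve1b.

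Further embryonic alpha globin rows were in the tables. One was listed as hbae1, an older name of hbae1.1, which has near-identical copies of its own. It had 2156 and 2279 TPM in WT/Het and 1315 and 306 TPM in Homo, without overlap, and did not pass the test (log2 fold change -1.80 ± 0.87 SE, adjusted p = 0.0695 by limma). Another, si:ch211-5k11.2, is an older name that RefSeq gives to both hbae1.2 and hbae1.3, so it could not be assigned to 1 of them and was left out of the lists. It had 1734 and 1860 TPM in WT/Het and 978 and 247 TPM in Homo, again without overlap, and did not pass either (log2 fold change -1.87 ± 0.89 SE, adjusted p = 0.0661 by limma). In RefSeq's gene order for GRCz12tu, hbbe1.1, hbae1.1 and hbbe1.2 follow each other with 0 annotated genes between them, and hbae3 ends the same cluster. The genes hbbe3 and hbbe2 lie in another cluster, with 2 annotated genes between them.

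Of the 11 other globin genes listed, adult globins, hbae1 and the globins of other tissues included, 8 were called higher by limma, 3 did not pass, and 7 were under the limit in every library. Adult globins were low. The row ba1, an older name of the adult beta globin hbba1, had 1.52 and 3.95 TPM in WT/Het and 8.71 and 21.1 TPM in Homo, above the limit in Homo replicate 2 alone. The adult alpha globin hbaa1 had 1.90, 4.11 and 2.86 TPM in WT/Het replicates 1 and 2 and Homo replicate 1, and 35.5 TPM in Homo replicate 2. Both ba1 and hbaa1 were called higher (adjusted p = 0.00628 and 0.0186 by limma), the latter with overlapping groups. Measured from the all-gene median, the log2 fold changes were 0.89 for ba1 and 0.46 for hbaa1. The single high value of hbaa1 was in the library with the fewest embryonic globin transcripts, which also had the highest background limit, 19.0 TPM. The rows for hbaa2, hbba1.1 and hbba2, found under synonyms, were under the limit in every library.

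A further 4 fixed lists covered the machinery that red cells need. Their counts, and that of the other globins, have to be read beside the 44.6% of all genes called higher and 4.43% called lower, and beside the 70.1% called higher among genes at or under the limit in all libraries. Of the 13 heme synthesis genes, 2 rose (ppox and slc25a38a, both under the limit in every library), 1 fell (alas1) and 10 did not pass, with a median log2 fold change of 0.25 against 1.17 for all genes. The fall of alas1, the housekeeping counterpart of alas2, rests on 82.8 TPM in WT/Het replicate 1. Its other 3 values were between 7.27 and 13.8 TPM, and the groups overlapped. Both Homo values of alas1 were under the limits of their libraries. The most abundant member, tmem14ca, which acts in porphyrin transport in mitochondria, had 184 and 94.9 TPM in WT/Het and 90.3 and 30.04 TPM in Homo (adjusted p = 0.204 by limma). The enzyme genes urod, with 22.4 and 34.5 against 21.8 and 8.92 TPM, and alad, with 7.45 and 32.03 against 27.8 and 12.8 TPM, did not pass either. In Homo replicate 2 both urod and alad were under the limit.

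Of the 15 genes of iron uptake and handling in the tables, 2 rose (tfr1a and fth1b), 1 fell (fth1a) and 12 did not pass, with a median log2 fold change of -0.07. The ferritin heavy chain gene fth1a fell from 402 and 183 TPM in WT/Het to 44.3 and 34.6 TPM in Homo (log2 fold change -2.76 ± 0.93 SE, adjusted p = 0.0196 by limma). Glutaredoxin 5, glrx5, which red cells need for iron-sulfur clusters, had 330 and 373 against 137 and 100.6 TPM without overlap (adjusted p = 0.145 by limma). The heme oxygenase gene hmox1a overlapped, with 117 and 55.2 against 192 and 53.3 TPM. The biliverdin reductase gene blvrb had 42.2 and 49.0 against 47.6 and 8.06 TPM, the last value being under its limit. The transferrin receptor gene tfr1a, through which zebrafish red cells take up iron, was called higher but, like fth1b, was under the limit in every library.

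Of 18 erythroid regulators, runx1 was listed at 0 in all 4 libraries and 17 were tested. In these, 9 rose, 1 fell and 7 did not pass, with a median log2 fold change of 1.3 against 1.17 for all genes. Those that rose were gata1a, gata1b, klf1, nfe2, zfpm1, gfi1b, epor, stat5a and kita. All 9 except epor were under the background limit in every library, among them gata1a, the main transcription factor of red cells, with 2.20 and 4.59 against 8.61 and 15.7 TPM, and klf1 with 1.59 and 4.38 against 8.80 and 14.4 TPM. The exception, the erythropoietin receptor gene epor, exceeded it in WT/Het replicate 2. The one that fell was lmo2, a cofactor used by both blood and endothelial progenitors, with 570 and 833 against 78.8 and 87.8 TPM (log2 fold change -3.04 ± 0.95 SE, adjusted p = 0.0154 by limma). Of the most abundant others, gfi1aa had 37.8 and 25.8 against 6.07 and 16.2 TPM, myb had 16.7 and 25.3 against 8.22 and 11.4 TPM, and tal1 had 1.78 and 30.4 against 7.73 and 9.996 TPM. All Homo values of gfi1aa, myb and tal1 were under the limits of their libraries, as was tal1 in WT/Het replicate 1.

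Of the 17 red cell membrane and enzyme genes in the tables, 5 rose, 1 fell and 11 did not pass, with a median log2 fold change of 0.60 against the same 1.17. All 5 that rose (ank1b, epb41b, add2, rhag and xk) were under the limit in every library. The one that fell was gypc, a glycophorin gene, with 55.0 and 44.5 against 8.23 and 13.5 TPM (log2 fold change -2.13 ± 0.77 SE, adjusted p = 0.024 by limma). Both Homo values of gypc were under the limits of their libraries, so the size of its fall is uncertain. The water channel gene aqp1a.1 had 1820 and 1045 against 619 and 215 TPM (adjusted p = 0.0653 by limma), and the peroxiredoxin gene prdx2 had 154 and 177 against 91.8 and 46.1 TPM. Both genes are also used by endothelial or other cells. The catalase gene cat overlapped, with 47.1 and 43.1 against 88.3 and 13.8 TPM, the last value being under its limit.

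The levels of these genes differed widely against the floor of the libraries. Embryonic globins were up to 785 times the background limit in WT/Het replicate 1 for hbbe1.1, and still 19.4 times in Homo replicate 2. Of the other erythroid genes in the set, cahz was 7.07, 7.31 and 2.39 times the limit in WT/Het replicates 1 and 2 and Homo replicate 1, while alas2 and slc4a1a were at most 1.09 and 1.25 times the limit. Of the 63 genes of the heme, iron, regulator and membrane lists, 40 exceeded the limit in at least 1 library and 23 in none, gata1a, klf1, rhag and ank1b among the latter. The number above it was 34 and 37 in WT/Het and 16 and 7 in Homo. Over all 29027 rows the number above it fell as well, from 9913 and 9038 in WT/Het to 4818 and 3013 in Homo. Of the 63 genes, those above it in all 4 libraries were the 7 genes lmo2, aqp1a.1, prdx2, glrx5, fth1a, hmox1a and tmem14ca. The summed globins were 1190 and 839 times alas2 in WT/Het and 239 and 46.3 times alas2 in Homo. In WT/Het replicate 2 and in both Homo libraries alas2 was under the limit, so the size of these ratios, and of their difference between groups, is uncertain.

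**Figure D5:**
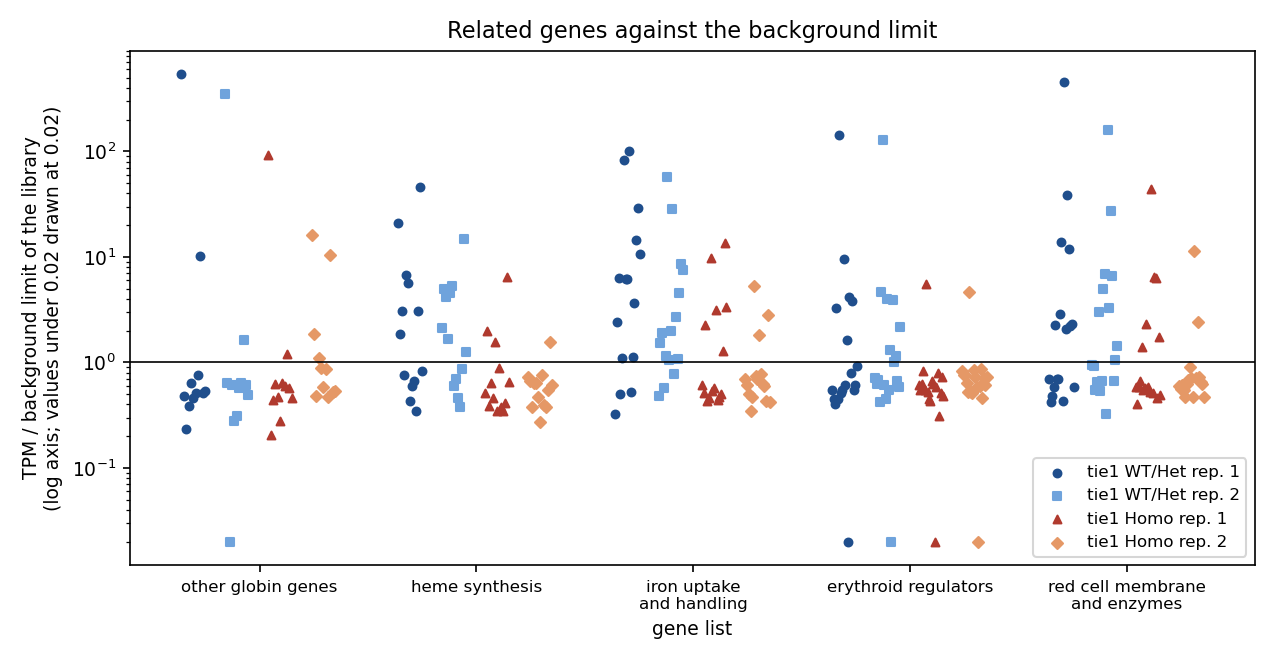
TPM divided by the background limit of the library (log axis) for the genes of 5 fixed lists in the 4 libraries; each point is 1 gene in 1 library, the line marks the limit, and values under 0.02, all listed at 0, are drawn at 0.02. In each list at least 1 gene stands far above the limit in WT/Het, among them hbae1, aqp1a.1, lmo2, fth1a, glrx5 and tmem14ca. Of the 18 regulators, 9 lie under it in all libraries.

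Markers of the sorted cells and of other cells that the sort could hold moved as well. Beside their counts stand the shares over all genes, 4.43% called lower and 44.6% called higher, with 33.0% called lower among genes with a mean of at least 50 TPM. Of 18 pan-endothelial markers 12 fell and 1 rose, and their summed TPM was 7616 and 5486 in WT/Het and 2582 and 763 in Homo. Of 10 venous and lymphatic markers 4 fell and 1 rose, with sums of 2913 and 2309 against 1147 and 410 TPM. Of 11 leukocyte markers 4 fell and 2 rose, with sums of 738 and 702 against 853 and 363 TPM. Of 12 skeletal muscle markers 3 fell and 2 rose, with sums of 539 and 1443 against 276 and 416 TPM, and of 8 epidermal markers 1 fell and 1 rose, with sums of 1370 and 860 against 710 and 283 TPM. Of 9 thrombocyte markers 5 rose and 4 did not pass, and of 9 neural markers 6 rose and 3 did not pass. Their sums stayed low, from 92.3 to 153 TPM for thrombocyte and from 56.6 to 107 TPM for neural markers, and 4 of the 9 thrombocyte and 6 of the 9 neural markers were under the limit in every library. In these 7 lists no marker was at 0 in any library. The part that these cells had in the globin difference was not tested.

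By a fixed rule, the genes with a profile over the 4 libraries nearest to that of the summed globins were sought among 1784 genes with a mean of at least 50 TPM. Profiles were log2(TPM + 1) centred on the mean of each gene, and likeness was their Euclidean distance. The 5 nearest were ran at a distance of 0.04, hnrpl at 0.10, cox6a1 at 0.10, fkbp1aa at 0.12 and fkbp9 at 0.14. None of the 5 is a blood gene, and ran, a GTPase of nuclear transport, had 372 and 310 TPM in WT/Het and 129 and 41.3 TPM in Homo. The globin hbae1 came at place 220 with a distance of 0.55. Many abundant genes were thus nearer to the profile of the summed globins over these 4 libraries than hbae1 was.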

How the data were processed

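For each library the authors deposited TPM values per gene, per the file headers. Trim Galore 0.6.6, cutadapt 2.8, HISAT2 2.2.1, SAMtools 1.7, StringTie 2.1.4 and the build GRCz11 are named, per the submitters' processing notes. Annotation, settings, filters and the treatment of reads shared by globin copies are not given in the sources used here. RNA was amplified with a SMART-Seq v4 kit, per the labels' protocols. TPM keeps no record of depth, so no counting interval was computed. An exact 0 can be a failed estimate.

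Groups came from the sample titles. Genes with a mean of at least 1 TPM entered a limma fit (version 3.58.1, R 4.3.3) of log2(TPM + 1) on group alone, moderated by eBayes along an intensity trend. P-values were two-sided, with Benjamini-Hochberg adjustment over all genes and a threshold of 0.05. Single genes were also tested by exact permutation (scipy 1.17.1). The limma script was tested on simulated data with equal noise for every gene and no difference in floor between groups. That test does not cover libraries whose floors differ, as they do here. The fit leaves 2 residual degrees of freedom.

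The genes of the set, the 12 other lists and the background genes were chosen with earlier results of these data known. Named by rule are the set, the 4 genes with the highest mean TPM of each related list and the 5 nearest profiles. Called genes of these lists were named after their values were seen. For the 7 lists of other cell types counts and sums are given, with single values for tie1, kdrl, lyve1b and cdh5 only. The gene cdh5 was not named by rule. In the lists, 6 symbols were matched through synonyms (RefSeq, GRCz12tu). No genome or sequence table was used, so neither coordinates nor sequences are given.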

Additional observations from a re-analysis of the deposited data

How the results depend on the processing

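Of the 8 genes, limma called 3 lower and 1 higher, and 1255 and 12618 of all genes. All 4 counts were 0 by limma with median-of-ratios rescaling, quantile normalization or background subtraction; at an unadjusted p-value under 0.05 these had 4110, 1806 and 2711 genes lower and 1218, 1270 and 282 higher. With no filter on low values 0 of the 8 genes were called in either direction, and 5 of all genes were called lower and 41 higher. Without the trend in eBayes 5 of the 8 genes were called lower and 0 higher, with 1986 and 8103 of all genes. With robust eBayes 0 of the 8 were called higher, with 1 at an unadjusted p-value under 0.05. When the listed genes were summed to 1000000, with or without the globins, 718 and 724 of all genes were called lower. With 1 library left out, the lower calls ranged from 0 to 4 and the higher calls from 0 to 1 of the 8 genes, and from 66 to 1723 and from 460 to 14087 over all genes; the lone library is then assumed to vary like the other group. The cause of these differences was not tested. The log2 fold change of alas2 turned from 0.95 to -0.26 with median-of-ratios rescaling, to -0.070 with quantile normalization and to -0.68 with background subtraction. The replicate numbers are not said to pair libraries; the deviations of same-numbered libraries correlated at 0.13, and with the replicate number as a block 2 of the 8 genes were called lower (hbbe1.1 and hbbe1.2) and 1 higher, with 666 of all genes lower. The number of libraries, unknown depth and a background limit of 14.1 and 19.0 TPM in Homo limit what can be seen of alas2, slc4a1a and the regulators.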

Other observations

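Globins that are not red cell oxygen carriers were also in the tables. Myoglobin, mb, the oxygen store of muscle, had 41.0 and 10.5 TPM in the WT/Het libraries and 16.97 and 199 TPM in the Homo libraries, so the groups overlapped, and it did not pass the test (log2 fold change 1.45 ± 0.83 SE, adjusted p = 0.123 by limma). Its highest value was in Homo replicate 2, the library with the least embryonic globin and the highest background limit. The cytoglobins cygb1 and cygb2, the neuroglobin ngb and the globin xgb were under the background limit in every library. Of these, cygb1 had 2.06 and 3.73 TPM in WT/Het and 8.97 and 16.4 TPM in Homo, and ngb had 2.04 and 3.96 against 8.12 and 9.94 TPM.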
